A study of Mus musculus with 18 samples.

Results

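Expression of 52 cell division genes was followed in mouse lung tumors that arose spontaneously and in those of mice exposed to antimony trioxide by inhalation. The genes were listed by function, with earlier results of these data known: 16 act in S phase or at entry into it, and 36 act in mitosis or prepare for it. A gene was measured by the probe sets, the array's groups of short oligonucleotides, whose only gene symbol is that gene. Where a gene had several, the probe set with the highest mean was taken. This gave 51 of the 52 genes, out of 18193 genes tested in all, with 16 S phase and 35 mitosis genes; Ccnb1 had no such probe set and was not measured.

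The study compared lung of vehicle control mice, spontaneous tumors and tumors of mice exposed to antimony trioxide, each with 6 arrays. All were from B6C3F1/N mice (first-generation hybrids of C57BL/6 and C3H strains) that entered the study at 5 to 6 weeks of age and inhaled 0, 3, 10 or 30 mg of antimony trioxide per cubic metre for up to 105 weeks. Tumors, called alveolar bronchiolar carcinomas in the study's title, were dissected from the surrounding lung and frozen, and total RNA was hybridised to an Affymetrix mouse array. The labels do not give the animal, sex or exposure level behind an array, nor say whether a control lung or a spontaneous tumor came from the same animal as another, so each p-value reflects only how these samples vary, which may be partly technical. Control 5 and spontaneous tumors 5 and 6 stood apart, with a median correlation to the other arrays of 0.30 to 0.48 against 0.92 to 0.97, and were left out. This left 5 control lungs (1, 2, 3, 4 and 6), 4 spontaneous tumors (1 to 4) and 6 tumors of exposed mice (1 to 6), called treated tumors here. Values are log2 levels, on which a difference of 1 is a 2-fold change, and the level of one gene cannot be set against that of another on such an array. The labelled tissue was checked on its markers. Markers of alveolar type 2 cells, from which such tumors are thought to arise, rose in tumors for 7 of 8 genes in each group, and club and ciliated airway cell markers fell for 6 of 8 genes in spontaneous and 8 of 8 in treated tumors.

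A dividing cell passes through S phase, in which its DNA is copied, and mitosis, in which the copies are parted. At the entry to S phase, cyclin-dependent kinases release E2F transcription factors, which switch on genes for copying DNA. Genes for mitosis come on later, under MYB and FOXM1 proteins that are recruited through the MuvB complex to CHR elements. Nearby CCAAT boxes are bound by another factor, NF-Y. In resting adult lung few cells divide, so the RNA of these genes is used as a measure of proliferation in tumors.

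The sequences before the start sites show how S phase and mitosis genes differ in these elements. Windows of 300 bases, from 250 before to 50 after the start, were found in RefSeq (mouse build GRCm38.p6) for 44 of the 52 genes. They were searched on both strands for an E2F site (TTTGGCGC, TTTGCCGC, TTTCGCGC or TTTCCCGC), for a CHR (TTTGAA) and for CCAAT. Matches of one motif may overlap each other or those of another. An E2F site was in 6 of 14 S phase genes and 1 of 30 mitosis genes, and in 2.26% of all 32851 windows. The CHR was in 1 of 14 S phase genes and 21 of 30 mitosis genes, and in 17.9% of all windows. CCAAT was in 8 of 14 and 22 of 30, and in 37.4% of all windows. A match is a run of letters, and binding was not measured. The 6 stretches below were chosen for 2 S phase genes, 3 mitosis genes and Nek2, the mitosis gene whose mean was lower in tumors. Each is read 5′ to 3′ on the strand of the gene, from 250 bases before to 25 bases after the start, with every match of the motifs in capitals.
Mcm6, chr1:128359681-128359955, minus strand: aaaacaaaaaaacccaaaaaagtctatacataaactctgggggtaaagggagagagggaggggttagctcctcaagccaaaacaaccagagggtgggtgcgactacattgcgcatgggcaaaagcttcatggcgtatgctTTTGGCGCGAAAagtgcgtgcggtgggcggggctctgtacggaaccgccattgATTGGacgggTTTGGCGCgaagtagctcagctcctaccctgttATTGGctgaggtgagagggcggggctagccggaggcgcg
Cdk2, chr10:128705027-128705301, minus strand: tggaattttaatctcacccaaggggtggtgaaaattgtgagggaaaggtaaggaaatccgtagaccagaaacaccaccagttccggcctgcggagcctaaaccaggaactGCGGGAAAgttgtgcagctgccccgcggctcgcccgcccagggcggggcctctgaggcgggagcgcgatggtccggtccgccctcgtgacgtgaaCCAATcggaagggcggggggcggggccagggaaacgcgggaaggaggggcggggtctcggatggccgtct
Cdk1, chr10:69352888-69353162, minus strand: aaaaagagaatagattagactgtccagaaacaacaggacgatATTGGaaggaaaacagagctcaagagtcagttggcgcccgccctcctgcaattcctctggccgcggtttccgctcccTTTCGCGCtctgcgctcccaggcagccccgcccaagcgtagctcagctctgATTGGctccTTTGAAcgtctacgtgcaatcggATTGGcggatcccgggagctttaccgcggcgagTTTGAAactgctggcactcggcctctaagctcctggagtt
Mki67, chr7:135716355-135716629, minus strand: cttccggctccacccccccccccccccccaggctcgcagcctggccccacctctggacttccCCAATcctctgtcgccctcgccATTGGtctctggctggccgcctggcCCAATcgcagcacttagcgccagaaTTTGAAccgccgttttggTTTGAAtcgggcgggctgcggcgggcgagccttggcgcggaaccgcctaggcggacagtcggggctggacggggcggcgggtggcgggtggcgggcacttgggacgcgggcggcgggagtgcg
Ube2c, chr2:164769679-164769953, plus strand: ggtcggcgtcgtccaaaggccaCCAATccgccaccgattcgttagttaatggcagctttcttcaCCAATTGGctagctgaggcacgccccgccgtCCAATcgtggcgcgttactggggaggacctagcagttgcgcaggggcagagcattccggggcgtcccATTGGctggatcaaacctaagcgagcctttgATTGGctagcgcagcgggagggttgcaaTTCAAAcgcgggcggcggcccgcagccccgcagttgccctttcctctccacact
Nek2, chr1:191821223-191821497, plus strand: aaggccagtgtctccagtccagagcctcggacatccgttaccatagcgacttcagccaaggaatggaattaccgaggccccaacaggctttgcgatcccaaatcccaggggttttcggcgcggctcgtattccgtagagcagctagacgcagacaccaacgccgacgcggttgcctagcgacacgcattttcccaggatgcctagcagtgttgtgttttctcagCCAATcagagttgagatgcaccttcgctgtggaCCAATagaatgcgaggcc
In Mcm6, which encodes a subunit of the replicative helicase, E2F matches lay at positions -110, -106 and -47 from the start. Cdk2 had an E2F match at -140. Cdk1 held an E2F match at -131, CHR matches at -71 and -15, and 3 CCAAT matches. Mki67 had CHR matches at -116 and -98, and Ube2c had a CHR match at -29 and 6 CCAAT matches. Nek2 had neither an E2F nor a CHR match in this window, and 2 CCAAT matches.

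Both tumor groups had higher levels of cell division genes than control lung. In spontaneous tumors 8 of 16 S phase genes and 30 of 35 mitosis genes rose, and in treated tumors 8 of 16 S phase genes and 14 of 35 mitosis genes rose, by limma at an adjusted p under 0.05 over all genes. In bulk tissue, a higher share of dividing cells and more of this RNA per dividing cell cannot be told apart. Over all 18193 genes, 20.1% rose in spontaneous tumors, where 33.0% changed in either direction, and 23.8% rose in treated tumors, where 38.8% changed in either direction. No cell division gene fell in either comparison by limma, against 2350 and 2735 of all genes. Of the 51 genes, 42 in spontaneous and 38 in treated tumors had an unadjusted p under 0.05. Over all 18193 genes, 7830 and 8502 did. Single arrays moved the counts of cell division genes called. The count of all genes called higher moved too over the 28 alternative fits. It ranged from 177 to 4278 in spontaneous and from 542 to 4813 in treated tumors. For single arrays left out, the counts over all genes are not given here. Without spontaneous tumor 1 the counts in spontaneous tumors were 4 S phase and 19 mitosis genes. In treated tumors the count of mitosis genes was 30 without treated tumor 4 and 25 without control 2. It was 8 without control 1, control 3, treated tumor 1 or treated tumor 6, and 7 without control 4. The median log2 fold change was 0.88 for S phase genes and 1.50 for mitosis genes in spontaneous tumors, against 0.12 over all genes. In treated tumors the medians were 0.93 and 0.99, against 0.089 over all genes. All spontaneous tumor arrays lay above all control arrays for 4 S phase and 19 mitosis genes, as for 17.8% of all genes. For treated tumors this held for 4 S phase and 2 mitosis genes, as for 14.4% of all genes. In all, 21 genes rose in both tumor groups, 17 in spontaneous tumors alone, 1 in treated tumors alone and 12 in neither. Both comparisons share the control arrays. The matching joint counts over all genes are not given here, so whether these are unusual cannot be read from them. Direct comparison of the tumor groups, given further on, called none of these genes. Probe sets of a gene did not always give the same call. Of 24 mitosis genes with other probe sets, 6 in spontaneous and 5 in treated tumors were called higher only on the one used. Only on another, 1 and 5 were called higher. Of 12 such S phase genes, 1 and 1 were called higher only on the one used, and 2 and 3 only on another.

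**Figure D1:**
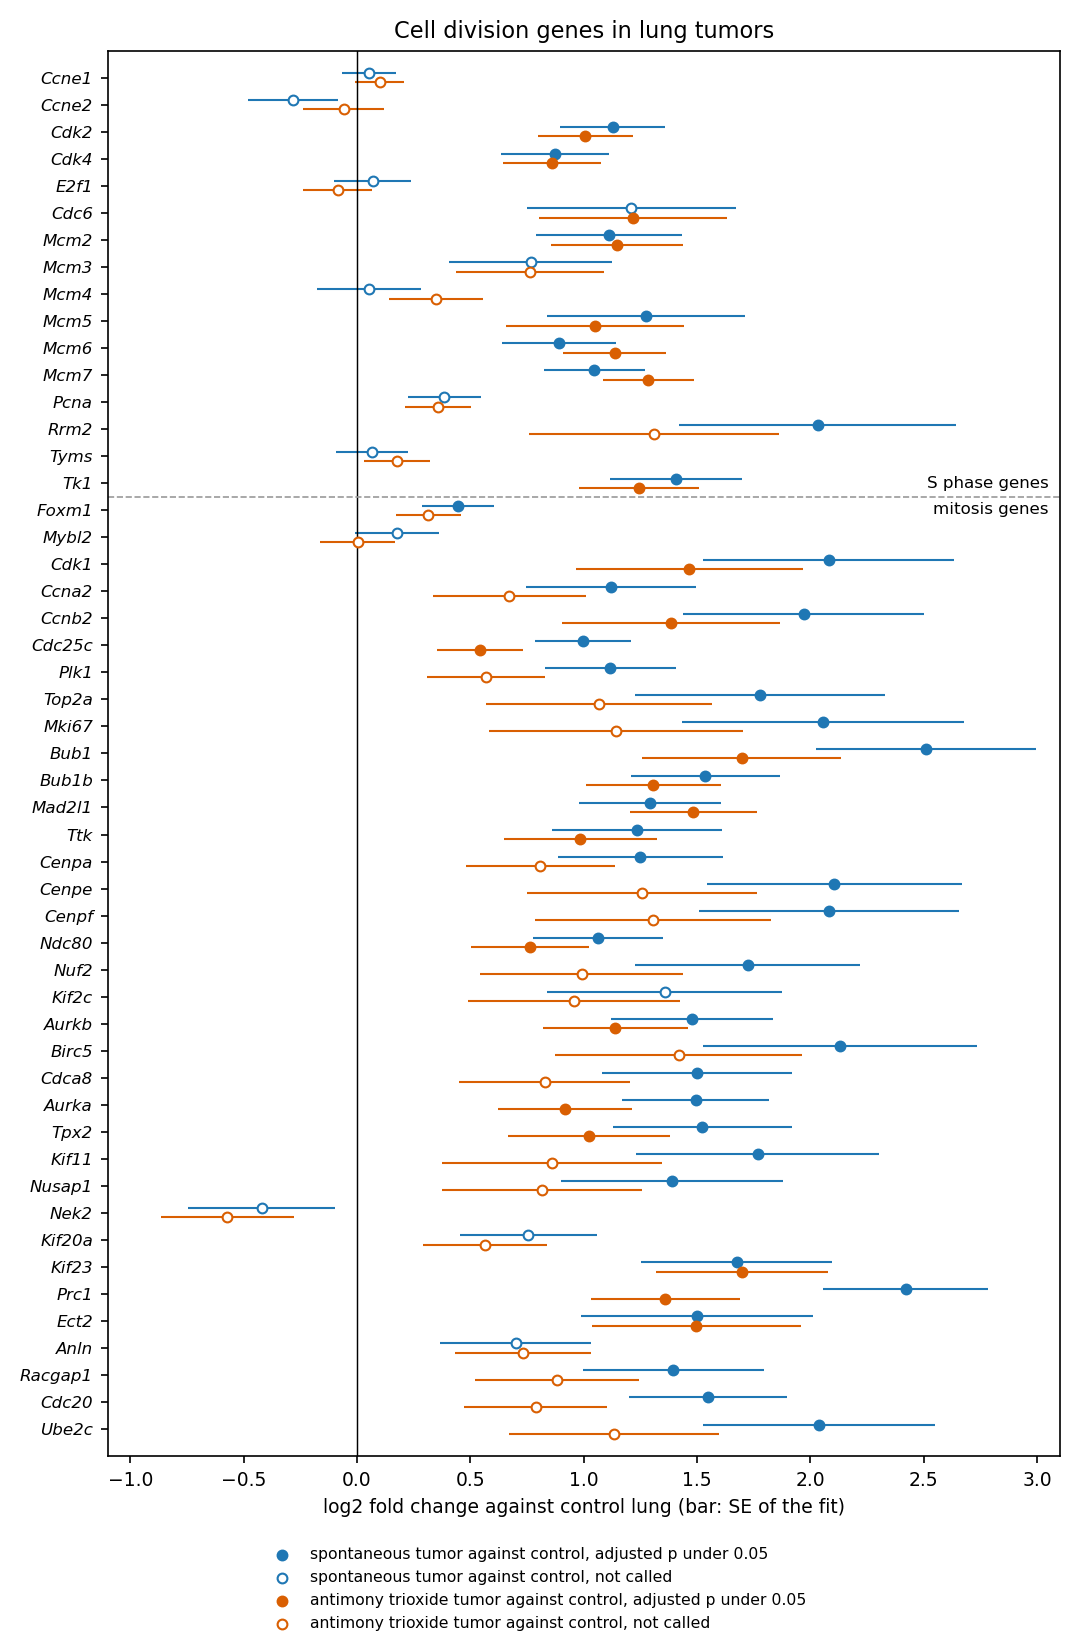
Log2 fold change of each of the 51 genes against control lung, with its standard error as a bar, for spontaneous tumors (blue, 4 arrays) and treated tumors (orange, 6 arrays) against 5 control arrays. Filled points passed an adjusted p under 0.05: 38 in spontaneous and 22 in treated tumors, and the highest was Bub1 in spontaneous tumors at 2.51.

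Of the regulators of entry into S phase, the kinase genes rose and the cyclin E and E2F1 genes did not pass the test. Cdk4 encodes the kinase that acts with D cyclins early in G1. Cdk4 read 9.90, 10.18, 9.88, 10.08 and 9.88 on controls 1, 2, 3, 4 and 6, 11.63, 10.57, 10.45 and 10.78 on spontaneous tumors 1 to 4, and from 10.28 to 11.36 with a median of 10.86 on the 6 treated tumors. All tumor arrays lay above all control arrays, with spontaneous tumor 1 and treated tumor 5 the highest of their groups. Cdk4 rose by 0.87 ± 0.24 (adjusted p = 0.0111) in spontaneous and by 0.86 ± 0.22 (adjusted p = 0.00525) in treated tumors, in log2 units ± SE. Cdk2 encodes the partner of cyclins E and A. Cdk2 read 7.03, 7.85, 6.86, 7.01 and 7.76 on controls 1, 2, 3, 4 and 6, 9.03, 8.35, 8.36 and 7.99 on spontaneous tumors 1 to 4, and from 8.03 to 8.59 with a median of 8.33 on the 6 treated tumors. Again no tumor array reached down to the controls, among which 2 and 6 were the highest. Cdk2 rose by 1.13 ± 0.23 (adjusted p = 0.00174) and by 1.01 ± 0.21 (adjusted p = 0.00142). Ccne1 and Ccne2 encode the E cyclins. Ccne1 had a log2 fold change of 0.05 ± 0.12 (adjusted p = 0.776) in spontaneous and 0.10 ± 0.11 (adjusted p = 0.5) in treated tumors. Ccne2 had -0.28 ± 0.20 (adjusted p = 0.295) in spontaneous and -0.06 ± 0.18 in treated tumors, neither called. E2f1, a transcription factor that drives S phase genes, had 0.07 ± 0.17 (adjusted p = 0.789) and -0.09 ± 0.15 (adjusted p = 0.703). For these genes the groups overlapped in both comparisons.

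Of the 7 licensing genes, 4 rose in spontaneous and 5 in treated tumors. Mcm2 to Mcm7 encode the 6 subunits of the helicase ring that is set on origins before S phase, and Cdc6 encodes a factor that loads it. Mcm7 read 9.45, 10.17, 9.53, 9.88 and 10.14 on controls 1, 2, 3, 4 and 6, 11.41, 10.50, 10.54 and 11.08 on spontaneous tumors 1 to 4, and from 10.67 to 11.45 with a median of 11.21 on the 6 treated tumors. Tumor and control arrays did not overlap. Mcm7 rose 2.06-fold in spontaneous tumors, by 1.05 ± 0.22 (adjusted p = 0.00222) on the log2 scale, and 2.44-fold in treated tumors, by 1.29 ± 0.20 (adjusted p = 0.000141). Mcm6 read 9.42, 10.33, 9.41, 9.30 and 9.83 on controls 1, 2, 3, 4 and 6, 11.11, 10.14, 10.35 and 10.59 on spontaneous tumors 1 to 4, and from 10.34 to 11.24 with a median of 10.78 on the 6 treated tumors. Spontaneous tumor 2 lay below control 2, and all treated tumors lay above all controls. Mcm6 rose by 0.89 ± 0.25 (adjusted p = 0.0134) and 1.14 ± 0.23 (adjusted p = 0.00104). Mcm2 rose by 1.11 ± 0.32 (adjusted p = 0.0157) and 1.15 ± 0.29 (adjusted p = 0.00569). Mcm5 rose by 1.27 ± 0.44 (adjusted p = 0.0353) and 1.05 ± 0.39 (adjusted p = 0.0461), and its call was lost without any 1 of 5 arrays in spontaneous and any 1 of 11 in treated tumors. Its other probe sets, tested singly by limma, were called higher in both groups. One had 1.49 ± 0.36 (adjusted p = 0.00564) and 1.37 ± 0.33 (adjusted p = 0.00384), the other 0.40 ± 0.10 (adjusted p = 0.00685) and 0.28 ± 0.09 (adjusted p = 0.0244). Mcm4 was not called, at 0.05 ± 0.23 in spontaneous tumors and 0.35 ± 0.21 (adjusted p = 0.205) in treated tumors. Mcm3 had 0.77 ± 0.36 (adjusted p = 0.117) and 0.76 ± 0.33 (adjusted p = 0.0764) on the probe set used. Tested singly over all probe sets, another of its 5 was called higher in both groups, at 0.77 ± 0.22 (adjusted p = 0.0131) and 0.73 ± 0.20 (adjusted p = 0.00804). Cdc6, the factor that loads the helicase with the origin complex, was spread more widely in control lung and treated tumors than in spontaneous tumors. Cdc6 read 4.11, 5.95, 4.32, 5.23 and 5.16 on controls 1, 2, 3, 4 and 6, 5.91, 6.27, 6.12 and 6.36 on spontaneous tumors 1 to 4, and from 4.44 to 7.02 with a median of 6.40 on the 6 treated tumors. Treated tumor 4 lay among the controls, treated tumor 3 and spontaneous tumor 1 just below control 2, and the other tumors above it. Cdc6 was the one cell division gene called in treated tumors alone, at 1.22 ± 0.42 (adjusted p = 0.0299), but its fold change in spontaneous tumors was nearly as large, at 1.21 ± 0.46 (adjusted p = 0.0554). The Cdc6 call in treated tumors was lost without any 1 of 6 arrays.

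Of the genes for nucleotide supply and the sliding clamp, Tk1 rose in both tumor groups and Rrm2 in spontaneous tumors. Tk1 encodes the thymidine kinase of the salvage pathway. Tk1 read 5.67, 6.64, 5.71, 5.37 and 6.60 on controls 1, 2, 3, 4 and 6, 7.30, 7.35, 7.34 and 7.64 on spontaneous tumors 1 to 4, and from 6.32 to 7.69 with a median of 7.38 on the 6 treated tumors. Controls 2 and 6 and treated tumor 4 lay close together, between the other controls and the other tumors. Tk1 rose by 1.41 ± 0.29 (adjusted p = 0.0019) and 1.24 ± 0.26 (adjusted p = 0.00166). Rrm2 encodes the small subunit of ribonucleotide reductase. Rrm2 read 7.28, 9.60, 7.28, 6.55 and 8.97 on controls 1, 2, 3, 4 and 6, 10.38, 9.45, 9.64 and 10.40 on spontaneous tumors 1 to 4, and from 7.88 to 10.50 with a median of 8.96 on the 6 treated tumors. The controls alone spanned about 3 log2 units, with 2 and 6 high and 4 lowest. Rrm2 rose 4.09-fold in spontaneous tumors, by 2.03 ± 0.61 (adjusted p = 0.0188), and had 1.31 ± 0.55 (adjusted p = 0.0737) in treated tumors, not called. Its other probe sets were called there, at 0.99 ± 0.34 (adjusted p = 0.0325) and 1.26 ± 0.47 (adjusted p = 0.0451). Pcna, the clamp that holds the polymerase to DNA, had the small differences 0.39 ± 0.16 (adjusted p = 0.0791) and 0.36 ± 0.15 (adjusted p = 0.0642). Tyms encodes thymidylate synthase, and had 0.07 ± 0.16 (adjusted p = 0.78) and 0.18 ± 0.14 (adjusted p = 0.362). Another of its 4 probe sets was called higher, at 0.64 ± 0.15 (adjusted p = 0.00515) and 0.46 ± 0.14 (adjusted p = 0.0169). A further probe set, shared with the pseudogene Tyms-ps and so not tested, read 7.83 ± 0.28 (SD, n = 5) in control lung, 8.77 ± 0.25 (n = 4) in spontaneous and 8.70 ± 0.45 (n = 6) in treated tumors.

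Of the transcription factors of mitosis genes, Foxm1 passed the test in spontaneous tumors and Mybl2 in neither group. Foxm1 rose by 0.45 ± 0.16 (adjusted p = 0.0414) in spontaneous tumors and had 0.32 ± 0.14 (adjusted p = 0.0961) in treated tumors. The call in spontaneous tumors was lost without any 1 of 8 arrays. Of its 4 probe sets, tested singly by limma, 2 others were called higher in both groups. In spontaneous tumors they had 0.59 ± 0.15 (adjusted p = 0.00871) and 1.19 ± 0.37 (adjusted p = 0.0242). In treated tumors they had 0.53 ± 0.14 (adjusted p = 0.00731) and 1.01 ± 0.34 (adjusted p = 0.0281). The remaining probe set was not called, at -0.10 in spontaneous and -0.11 in treated tumors. Mybl2, which encodes B-MYB, had 0.18 ± 0.18 (adjusted p = 0.494) and 0.00 ± 0.17 (adjusted p = 0.993).

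The kinase that drives mitosis and its partners rose in spontaneous tumors for all 5 genes measured, and in treated tumors for 3. Cdk1 encodes that kinase. Cdk1 read 6.50, 8.08, 6.74, 5.79 and 7.54 on controls 1, 2, 3, 4 and 6, 10.10, 8.44, 8.41 and 9.09 on spontaneous tumors 1 to 4, and from 6.74 to 9.63 with a median of 8.35 on the 6 treated tumors. All spontaneous tumors lay above all controls, while treated tumor 4 lay among controls 1 and 3. Cdk1 rose 4.23-fold in spontaneous tumors, by 2.08 ± 0.55 (adjusted p = 0.00965), and 2.76-fold in treated tumors, by 1.47 ± 0.50 (adjusted p = 0.0301). Ccnb2, cyclin B2, rose by 1.97 ± 0.53 (adjusted p = 0.0103) and 1.38 ± 0.48 (adjusted p = 0.0322). Cdc25c encodes the phosphatase that activates CDK1. Cdc25c read 5.71, 5.80, 5.68, 5.76 and 5.98 on controls 1, 2, 3, 4 and 6, 6.87, 6.87, 6.73 and 6.66 on spontaneous tumors 1 to 4, and from 5.67 to 6.95 with a median of 6.35 on the 6 treated tumors. Controls differed little from each other, all spontaneous tumors lay above them, and treated tumors 2 and 4 did not. Cdc25c rose by 1.00 ± 0.21 (adjusted p = 0.00218) and 0.54 ± 0.19 (adjusted p = 0.0347). In treated tumors the Cdc25c call was lost without any 1 of 7 arrays, and those of Cdk1 and Ccnb2 without any 1 of 5. Ccna2, cyclin A2, rose by 1.12 ± 0.38 (adjusted p = 0.0322) in spontaneous tumors and had 0.67 ± 0.34 (adjusted p = 0.133) in treated tumors. Its call in spontaneous tumors was lost without any 1 of 6 arrays. Plk1, a kinase of mitotic entry and spindle assembly, rose by 1.12 ± 0.29 (adjusted p = 0.00822) and had 0.57 ± 0.26 (adjusted p = 0.0997).

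Mki67 and Top2a, both used as markers of dividing cells, rose in spontaneous tumors and did not pass the test in treated tumors. Mki67 encodes Ki-67, which coats mitotic chromosomes. Mki67 read 8.51, 10.70, 8.79, 7.81 and 10.31 on controls 1, 2, 3, 4 and 6, 12.04, 10.97, 10.42 and 11.70 on spontaneous tumors 1 to 4, and from 8.67 to 11.41 with a median of 10.36 on the 6 treated tumors. Controls 2 and 6 reached the lower tumors, and treated tumor 4 lay with controls 1 and 3. Mki67 rose 4.16-fold in spontaneous tumors, by 2.06 ± 0.62 (adjusted p = 0.0192), and had 1.14 ± 0.56 (adjusted p = 0.123) in treated tumors. Top2a, the topoisomerase that untangles sister chromosomes, rose by 1.78 ± 0.55 (adjusted p = 0.0221) and had 1.07 ± 0.50 (adjusted p = 0.105). Its call in spontaneous tumors was lost without any 1 of 5 arrays. The other Top2a probe sets were not called, at 0.45 and 0.08 in spontaneous and 0.20 and 0.23 in treated tumors.

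Of the 10 kinetochore and checkpoint genes, 9 rose in spontaneous tumors and 5 in treated tumors. Kinetochores tie chromosomes to the spindle, and the checkpoint delays their parting until all are tied. Bub1, a checkpoint kinase, had the highest log2 fold change of the 51 genes in spontaneous tumors. Bub1 read 4.97, 4.80, 3.97, 3.72 and 5.12 on controls 1, 2, 3, 4 and 6, 7.46, 6.62, 6.42 and 7.61 on spontaneous tumors 1 to 4, and from 5.42 to 7.67 with a median of 5.66 on the 6 treated tumors. No tumor array reached down to the controls, and treated tumors 1 and 6 stood well above the other 4. Bub1 rose 5.7-fold in spontaneous tumors, by 2.51 ± 0.49 (adjusted p = 0.00112), and 3.24-fold in treated tumors, by 1.70 ± 0.44 (adjusted p = 0.00632). Its other probe set was not called, at 0.79 ± 0.32 (adjusted p = 0.0694) and 0.49 ± 0.29 (adjusted p = 0.198). Mad2l1 encodes MAD2, which holds back the anaphase-promoting complex. Mad2l1 read 6.65, 7.79, 7.17, 7.05 and 7.45 on controls 1, 2, 3, 4 and 6, 9.43, 7.81, 7.84 and 8.98 on spontaneous tumors 1 to 4, and from 8.41 to 9.10 with a median of 8.62 on the 6 treated tumors. All tumor arrays lay above the controls, though spontaneous tumors 2 and 3 only just above control 2. Mad2l1 rose by 1.29 ± 0.31 (adjusted p = 0.00517) and 1.48 ± 0.28 (adjusted p = 0.000692). Bub1b, the checkpoint protein BUBR1, rose by 1.54 ± 0.33 (adjusted p = 0.00232) and 1.31 ± 0.30 (adjusted p = 0.0027). Ttk, the kinase MPS1, rose by 1.23 ± 0.37 (adjusted p = 0.0196) and 0.99 ± 0.34 (adjusted p = 0.0306), and Ndc80, which grips microtubules, by 1.06 ± 0.29 (adjusted p = 0.0106) and 0.76 ± 0.26 (adjusted p = 0.0302). In treated tumors the Ttk call was lost without any 1 of 4 arrays and the Ndc80 call without any 1 of 5. In spontaneous but not treated tumors the test was passed by Cenpe, a kinetochore motor, at 2.10 ± 0.56 (adjusted p = 0.00979). The same held for Cenpf at 2.08 ± 0.58 (adjusted p = 0.0118), for Nuf2, the partner of NDC80, at 1.72 ± 0.50 (adjusted p = 0.015), and for Cenpa, the centromeric histone, at 1.25 ± 0.36 (adjusted p = 0.0156). In treated tumors these genes had 1.26, 1.31, 0.99 and 0.81, with adjusted p from 0.0587 to 0.0952. Another Cenpf probe set was called higher in treated tumors too, at 1.64 ± 0.53 (adjusted p = 0.0228). Kif2c, a kinesin that takes microtubules apart, had 1.36 ± 0.52 (adjusted p = 0.0571) and 0.96 ± 0.47 (adjusted p = 0.122). Of its 4 probe sets, 2 others were called higher in spontaneous tumors, at 0.73 ± 0.24 (adjusted p = 0.0324) and 0.51 ± 0.17 (adjusted p = 0.029).

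The chromosomal passenger complex, which corrects wrong attachments and directs cytokinesis, rose in spontaneous tumors for the 3 listed genes. Its scaffold, Incenp, which was not among the 52 genes, had 0.78 ± 0.32 (adjusted p = 0.0735) and 0.52 ± 0.29 (adjusted p = 0.169), not called. Aurkb, its kinase, rose by 1.48 ± 0.36 (adjusted p = 0.00515) in spontaneous and 1.14 ± 0.32 (adjusted p = 0.0108) in treated tumors. Birc5, survivin, rose by 2.13 ± 0.60 (adjusted p = 0.0134) and had 1.42 ± 0.54 (adjusted p = 0.0505), just short of the threshold. Cdca8, borealin, rose by 1.50 ± 0.42 (adjusted p = 0.0124) and had 0.83 ± 0.38 (adjusted p = 0.098). Another Cdca8 probe set was called higher in treated tumors, at 0.50 ± 0.16 (adjusted p = 0.0226).

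Spindle assembly genes rose for 4 of 5 members in spontaneous and 2 of 5 in treated tumors. Aurka, the kinase of spindle poles, rose by 1.49 ± 0.33 (adjusted p = 0.00265) and 0.92 ± 0.29 (adjusted p = 0.0219), and Tpx2, its activator, by 1.52 ± 0.40 (adjusted p = 0.00831) and 1.02 ± 0.36 (adjusted p = 0.0335). The Tpx2 call in treated tumors was lost without any 1 of 5 arrays. Kif11, the motor that pushes the poles apart, rose by 1.77 ± 0.54 (adjusted p = 0.0197) in spontaneous tumors and had 0.86 ± 0.48 (adjusted p = 0.179) in treated tumors. Nusap1, a microtubule binder, rose by 1.39 ± 0.49 (adjusted p = 0.0404) and had 0.82 ± 0.44 (adjusted p = 0.162). Its call in spontaneous tumors was lost without any 1 of 6 arrays. Nek2 encodes a centrosome kinase and was the only mitosis gene with a log2 fold change below 0. Nek2 read 7.79, 7.56, 7.18, 8.58 and 8.18 on controls 1, 2, 3, 4 and 6, 8.12, 6.88, 7.32 and 7.42 on spontaneous tumors 1 to 4, and from 6.25 to 7.68 with a median of 7.42 on the 6 treated tumors. Spontaneous tumor 1, the highest tumor for most mitosis genes, was again the highest here, treated tumor 4 was the lowest, and the groups overlapped. Nek2 had -0.42 ± 0.33 (adjusted p = 0.348) and -0.57 ± 0.29 (adjusted p = 0.14), not called. Of its 4 probe sets, 1 other fell in both groups, at -1.60 ± 0.32 (adjusted p = 0.00156) and -1.92 ± 0.29 (adjusted p = 0.00011). The remaining Nek2 probe sets were not called, at 0.20 and -0.33 in spontaneous and 0.01 and -0.59 in treated tumors.

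Cytokinesis genes rose for 4 of 6 members in spontaneous and 3 of 6 in treated tumors. Prc1 encodes the protein that bundles midzone microtubules. Prc1 read 6.47, 7.68, 6.31, 5.81 and 6.72 on controls 1, 2, 3, 4 and 6, 9.65, 8.68, 8.55 and 9.19 on spontaneous tumors 1 to 4, and from 7.17 to 8.59 with a median of 8.04 on the 6 treated tumors. All spontaneous tumors lay above all controls, with treated tumors between them and overlapping both. Prc1 rose 5.35-fold in spontaneous tumors, by 2.42 ± 0.36 (adjusted p = 0.000143), and 2.57-fold in treated tumors, by 1.36 ± 0.33 (adjusted p = 0.00402). Kif23 read 6.64, 8.43, 6.88, 6.91 and 7.59 on controls 1, 2, 3, 4 and 6, 9.29, 8.80, 8.61 and 9.15 on spontaneous tumors 1 to 4, and from 7.45 to 9.81 with a median of 9.12 on the 6 treated tumors. Of the treated tumors, 5 lay above all controls and treated tumor 4 did not. Kif23, the motor of the central spindle, rose by 1.68 ± 0.42 (adjusted p = 0.00673) and 1.70 ± 0.38 (adjusted p = 0.00239). Ect2, the exchange factor that activates RHOA at the cleavage furrow, rose by 1.50 ± 0.51 (adjusted p = 0.0352) and 1.50 ± 0.46 (adjusted p = 0.0181). The Ect2 call was lost without any 1 of 6 arrays in spontaneous and any 1 of 2 in treated tumors. Racgap1, the partner of KIF23, rose by 1.40 ± 0.40 (adjusted p = 0.0147) and had 0.88 ± 0.36 (adjusted p = 0.0666). Another Racgap1 probe set was called higher in treated tumors, at 0.92 ± 0.30 (adjusted p = 0.0268). Kif20a had 0.76 ± 0.30 (adjusted p = 0.0677) and 0.56 ± 0.27 (adjusted p = 0.118), and Anln, anillin of the contractile ring, 0.70 ± 0.33 (adjusted p = 0.119) and 0.73 ± 0.30 (adjusted p = 0.0652), neither called.

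Both genes for partners of the anaphase-promoting complex, the ubiquitin ligase that ends mitosis, rose in spontaneous tumors and neither passed in treated tumors. Ube2c encodes its ubiquitin-conjugating enzyme. Ube2c read 7.86 ± 0.92 (SD, n = 5) in control lung, 9.90 ± 0.65 (n = 4) in spontaneous tumors and 8.99 ± 0.89 (n = 6) in treated tumors. All spontaneous tumors lay above control 2, and treated tumors lay on both sides of it. Ube2c rose 4.11-fold, by 2.04 ± 0.51 (adjusted p = 0.00678), and had 1.13 ± 0.46 (adjusted p = 0.065) in treated tumors. Cdc20, an activator of the complex, rose by 1.55 ± 0.35 (adjusted p = 0.00333) and had 0.79 ± 0.32 (adjusted p = 0.0596). Another Cdc20 probe set was called higher in treated tumors, at 0.55 ± 0.19 (adjusted p = 0.0354).

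**Figure D2:**
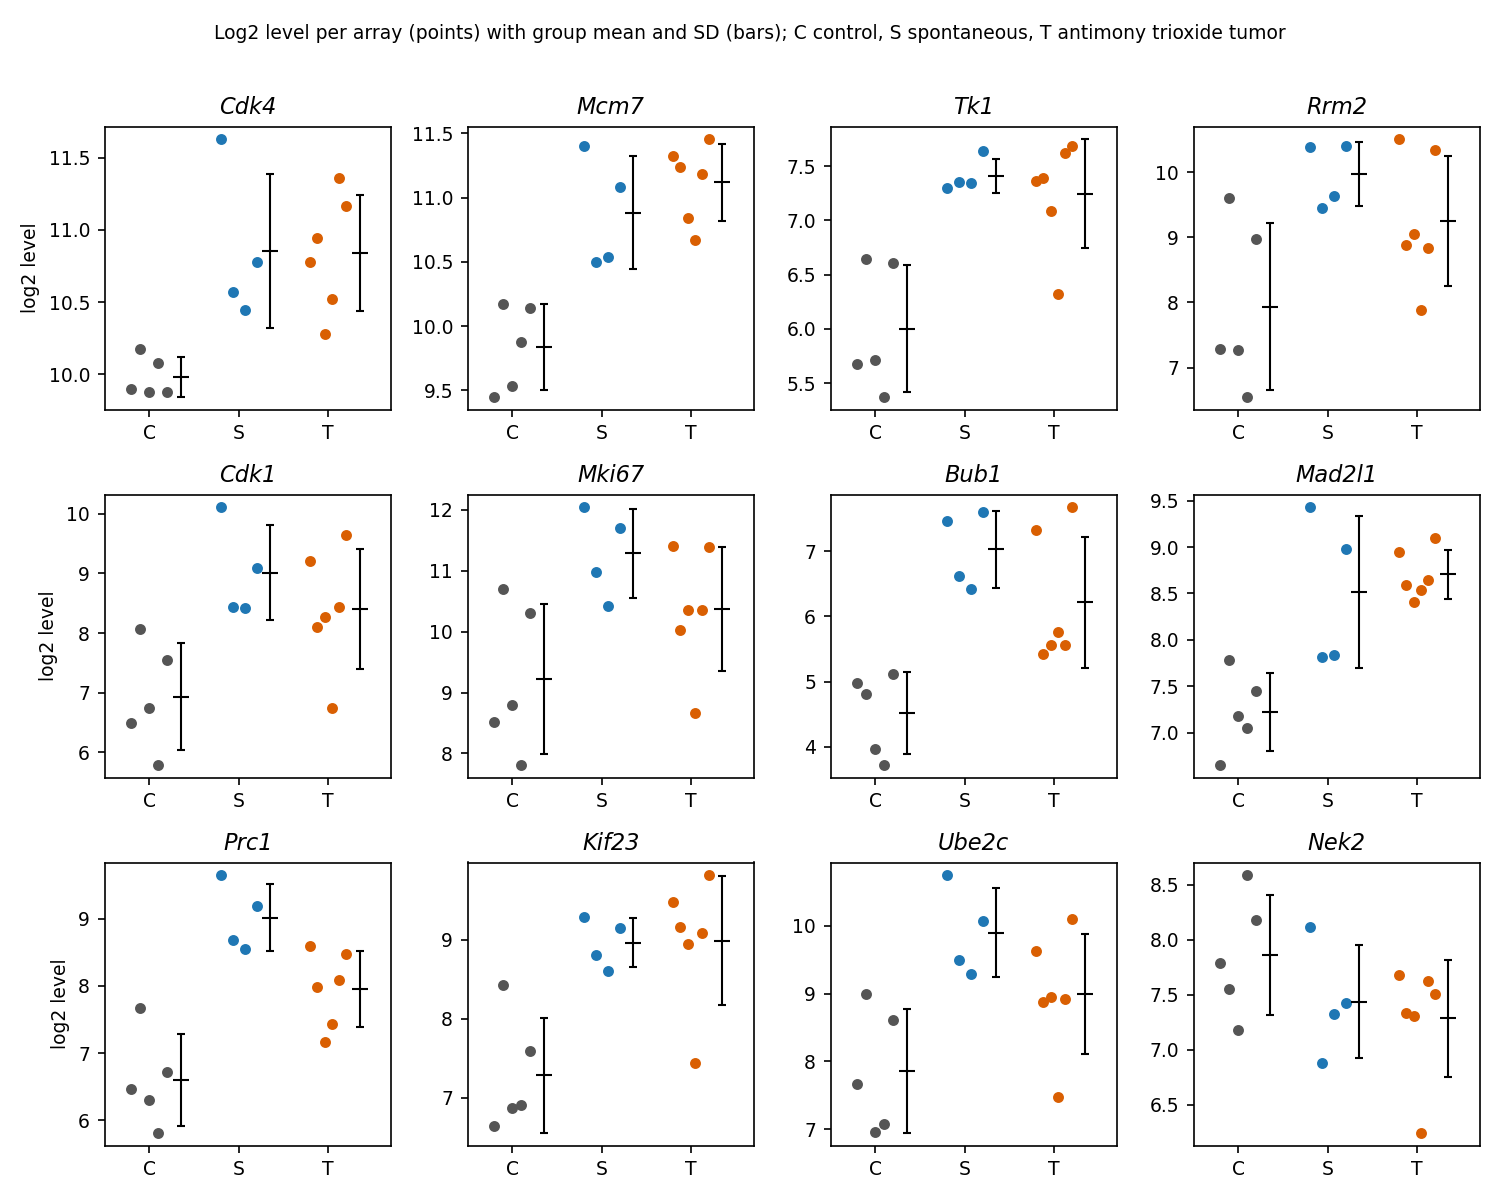
Log2 level of 12 of the genes on each array (points) with the group mean and standard deviation (bars) for 5 control lungs (C), 4 spontaneous tumors (S) and 6 treated tumors (T); each panel has its own axis, which does not start at 0. Cdk4 and Mcm7 separate tumors from controls, Mki67 and Rrm2 overlap, and the means of Nek2 are lower in tumors, not called.

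Much the same arrays overlapped from gene to gene. For each array, the median over genes of the log2 level less the control mean was taken. For mitosis genes it was -0.36, 0.88, -0.41, -0.56 and 0.43 on controls 1, 2, 3, 4 and 6, and 2.20, 1.11, 0.98 and 1.68 on spontaneous tumors 1 to 4. On treated tumors 1 to 6 it was 1.77, 0.74, 0.85, -0.08, 1.04 and 1.85. Control 2 thus lay above treated tumors 2, 3 and 4, and treated tumor 4 lay within the controls. S phase genes gave a narrower picture, with -0.29 to 0.44 on controls, 0.54 to 1.37 on spontaneous tumors and 0.061 to 1.12 on treated tumors. Single genes followed these medians. Control 2 was the highest control for 27 of 35 mitosis genes and 14 of 16 S phase genes. Spontaneous tumor 1 was the highest of its group for 33 of 35 mitosis genes, treated tumors 1 and 6 for 16 and 18, and treated tumor 4 was the lowest for 28. The spread within groups was accordingly wide: the median SD of a mitosis gene was 0.68 in control lung, 0.50 in spontaneous and 0.72 in treated tumors, against 0.21, 0.24 and 0.25 over all genes.

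**Figure D3:**
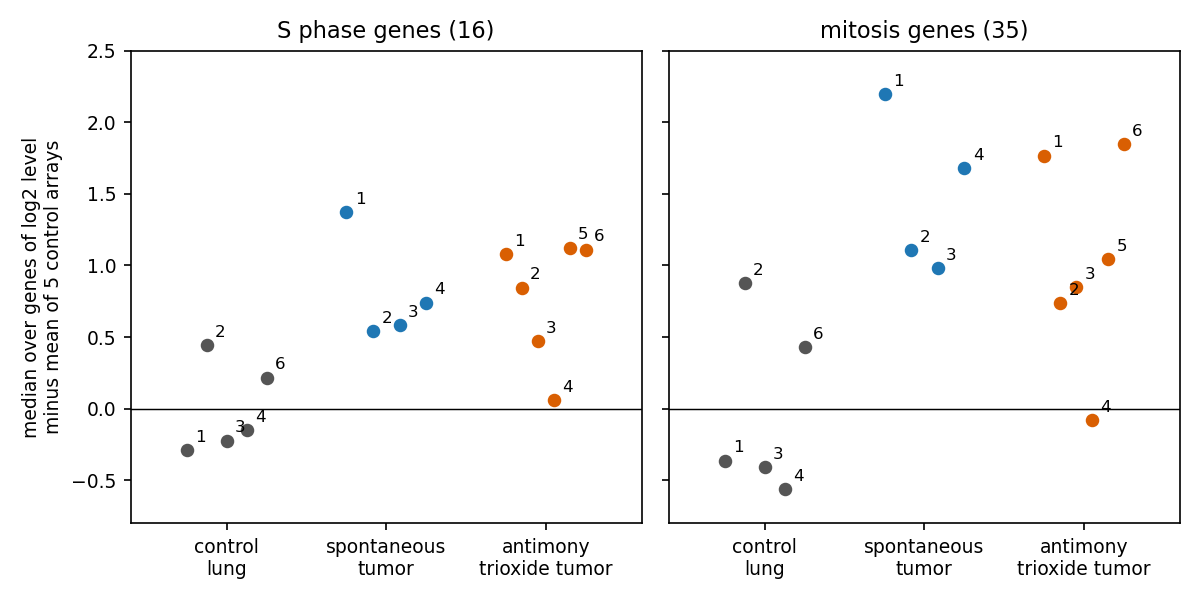
Median over S phase genes (left) and mitosis genes (right) of the log2 level less the mean of the 5 control arrays; each point is an array with its replicate number. For mitosis genes control 2 (0.88) lies above treated tumors 2, 3 and 4, and treated tumor 4 (-0.08) lies within the controls.

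Some other measures also differed on controls 2 and 6, the highest controls for mitosis genes. Markers of a cell type were summed as levels before log2 was taken, so the most abundant marker weighs most. For 8 markers of T and NK cells, which can divide, this sum was 11.53 and 11.22 on controls 2 and 6. It was 10.18 to 10.35 on the other controls, 9.13 to 10.50 in spontaneous and 8.86 to 10.01 in treated tumors. That of 8 macrophage markers was 14.68 and 14.91 on controls 2 and 6, against 13.96 to 14.26 on the other controls, 14.04 to 14.92 in spontaneous and 13.95 to 14.97 in treated tumors. Of the T and NK markers, 0 rose and 4 fell in spontaneous tumors, and 0 rose and 7 fell in treated tumors. Their sum was 9.13 and 9.14 on spontaneous tumors 1 and 4, the highest for mitosis genes, and 10.50 and 10.32 on 2 and 3. In treated tumors it was 10.01 and 9.23 on 1 and 6, the highest for mitosis genes, and 8.86 on 4, the lowest. The sum over B and plasma cell markers was 12.19 and 10.89 on controls 2 and 6, against 9.98 to 12.06 on the other controls. The sum over 8 alveolar type 2 markers was 16.01 and 16.06 on controls 2 and 6, against 15.55 to 15.68 on the other controls and 16.37 to 16.52 in tumors. The sum over 8 club and ciliated cell markers was 15.53 and 15.63 on controls 2 and 6, against 15.72 to 15.98 on the other controls and 9.69 to 14.20 in tumors. Endothelial markers, whose cells are abundant in normal lung, fell for 7 of 8 genes in spontaneous and 8 of 8 in treated tumors. The log2 of their summed level was 14.20 to 14.89 in control lung, 11.51 to 12.61 in spontaneous and 11.49 to 12.74 in treated tumors. The 3-prime minus 5-prime difference of the Gapdh control probe sets, a sign of RNA integrity and labelling, was 1.84 to 2.21 on controls, 1.11 to 1.40 on spontaneous and 1.09 to 1.97 on treated tumors. The part of these measures in the levels of cell division genes was not tested.

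**Figure D4:**
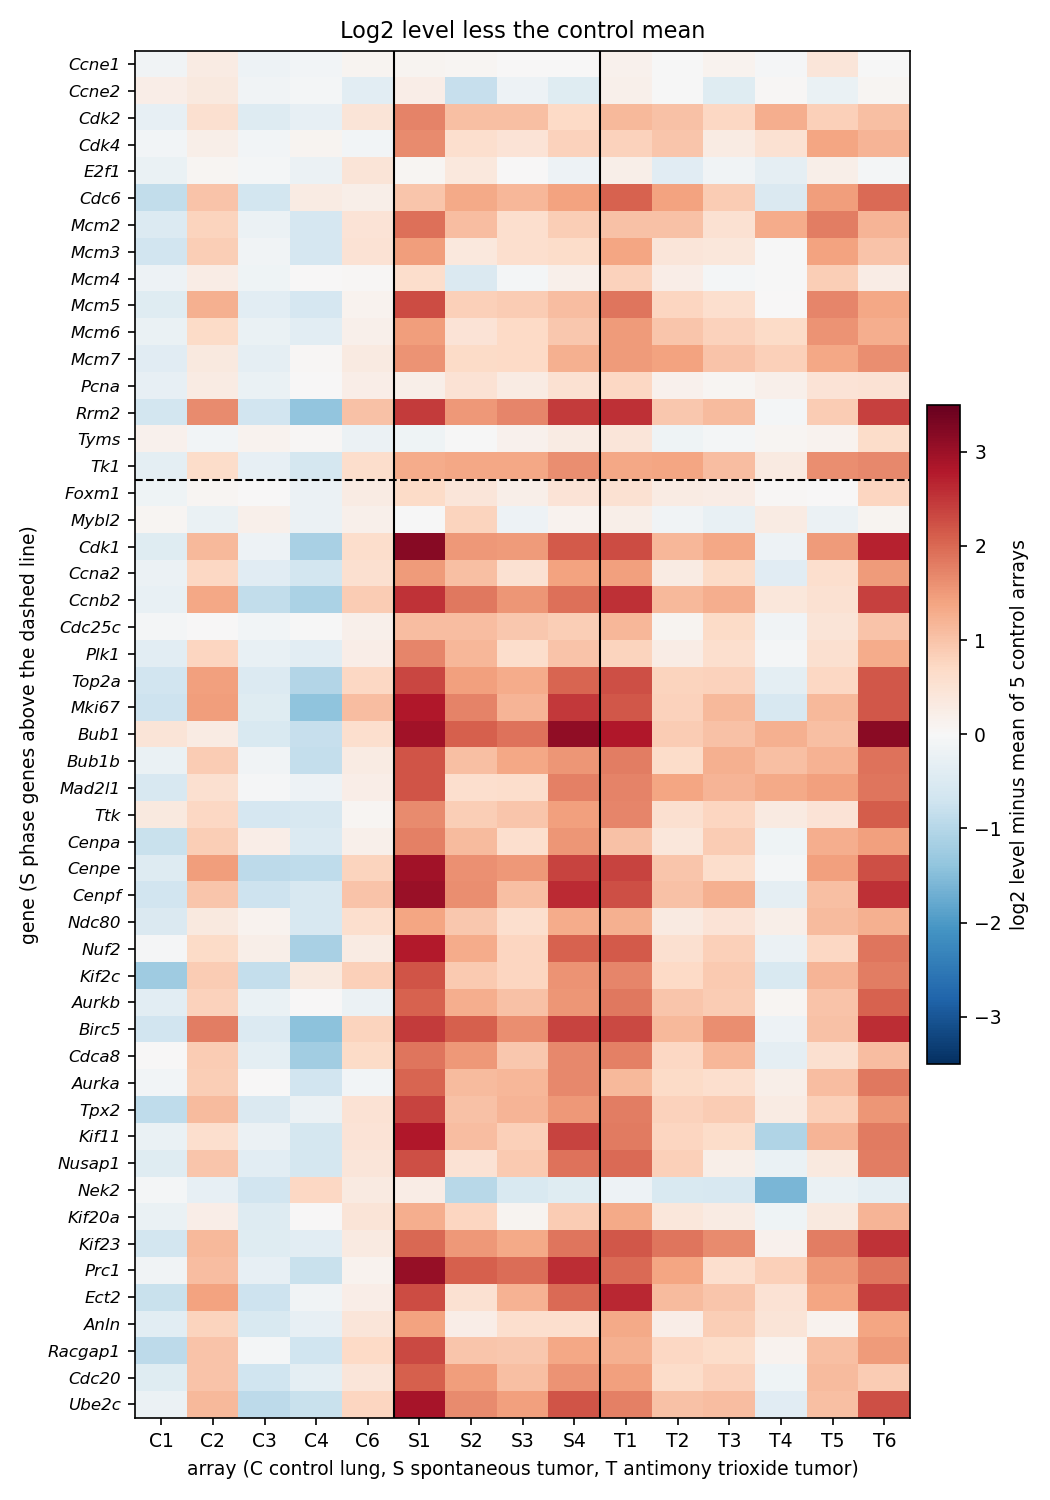
Log2 level of each gene less its mean over the 5 control arrays, by array (C control lung, S spontaneous tumor, T treated tumor), with S phase genes above the dashed line. Columns C2 and T4 depart from their groups across mitosis genes, with medians of 0.88 and -0.08, and S1 is the strongest, with a median of 2.20.

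Treated and spontaneous tumors were then set against each other, a comparison the study's design text does not list. Of the 51 genes none was called by limma, and over all genes 0.0330% were higher and 0.0220% lower in treated tumors. An unadjusted p under 0.05 was found for 3 of the 51 genes, and for 1571 of all 18193 genes. Mitosis genes had a median log2 difference of -0.51, with 3 of 35 above 0, while S phase genes had 0.0023, with 8 of 16 above 0. Over all genes the median was -0.023, with 8263 of 18193 above 0. The lowest adjusted p was that of Prc1, lower in treated tumors by 1.06 on the log2 scale, at -1.06 ± 0.35 (95% interval -1.80 to -0.32, adjusted p = 0.376). Cdc20 had -0.76 ± 0.34 (95% interval -1.47 to -0.04, adjusted p = 0.55) and Cdc25c -0.45 ± 0.20 (95% interval -0.89 to -0.02, adjusted p = 0.554). Mki67 had -0.92 ± 0.60, with a 95% interval of -2.19 to 0.36, so both no difference and a 2-fold lower level lie within it. For Cdk4 the interval was -0.50 to 0.48, around -0.01 ± 0.23, and for Mcm7 -0.22 to 0.70, around 0.24 ± 0.21. That 30 mitosis genes passed the test in spontaneous and 14 in treated tumors is thus not a tested difference between them: of those genes, none was called when the tumor groups were compared.

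Genes of the same pathways outside the list were counted the same way, to be read against the 20.1% of all genes that rose in spontaneous and the 23.8% that rose in treated tumors. Of 26 further replication genes measured, 18 rose and 1 fell in spontaneous tumors, and 19 rose and 2 fell in treated tumors. Cdt1, a licensing factor, rose by 2.57 ± 0.42 (adjusted p = 0.000271) and 2.58 ± 0.38 (adjusted p = 7.69e-05), and Rfc3, of the clamp loader, by 1.24 ± 0.18 (adjusted p = 0.000121) and 1.30 ± 0.16 (adjusted p = 2.16e-05). Orc1, of the origin complex, fell by 1.02 and by 1.04 on the log2 scale (adjusted p = 0.00115 and 0.000323). Of 40 further mitosis genes, 31 rose and 1 fell in spontaneous tumors, and 21 rose and 1 fell in treated tumors. Cdca5, sororin of the cohesin complex, rose by 2.67 ± 0.45 (adjusted p = 0.000408) and 2.04 ± 0.41 (adjusted p = 0.00107), and Cks1b, a subunit of cyclin-dependent kinases, by 1.85 ± 0.30 (adjusted p = 0.000277) and 1.83 ± 0.27 (adjusted p = 9.22e-05). The gene that fell in both was Pttg1, securin, at -0.85 ± 0.21 (adjusted p = 0.00552) and -1.04 ± 0.19 (adjusted p = 0.000457).

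Among 13 D cyclins, CDK6 and further E2F factors, 3 rose and 2 fell in spontaneous tumors, and 2 rose and 4 fell in treated tumors. Over all genes 20.1% and 23.8% rose, and 2350 and 2735 of 18193 fell. The counts of this list are small, and whether they differ from those shares was not tested. E2f3 rose most, by 1.72 ± 0.20 (adjusted p = 1.83e-05) and 2.07 ± 0.18 (adjusted p = 7.15e-07). Cdk6, the other kinase of D cyclins, fell by 1.39 and by 1.23 on the log2 scale (adjusted p = 0.00089 and 0.000756), where Cdk4 rose. Ccnd2 fell by 1.23 and by 1.35 (adjusted p = 0.00971 and 0.00216), and Ccnd1 rose in spontaneous tumors by 0.84 ± 0.15 (adjusted p = 0.000578). Of 14 CDK inhibitors, pocket proteins and MuvB subunits, 3 rose and 1 fell in spontaneous tumors, and 3 rose and 4 fell in treated tumors. The rising genes were near the share over all genes, and whether the falling genes differ from theirs was not tested. Lin9, of the MuvB complex, rose by 1.70 ± 0.32 (adjusted p = 0.000911) and 1.73 ± 0.29 (adjusted p = 0.000258), and Rb1, the retinoblastoma protein, had -0.56 ± 0.20 (adjusted p = 0.0477) and -0.89 ± 0.18 (adjusted p = 0.00144), lower in both. Cdkn2a, which encodes the inhibitors INK4A and ARF, rose in treated tumors by 1.26 ± 0.47 (adjusted p = 0.0434) and had 1.32 ± 0.52 (adjusted p = 0.0619) in spontaneous tumors. Of 14 genes for subunits and other regulators of the anaphase-promoting complex, 3 rose in spontaneous tumors, near the share over all genes, and 5 in treated tumors, and 0 fell. Fbxo5, its inhibitor EMI1, was among them at 0.91 ± 0.26 (adjusted p = 0.0151) and 1.01 ± 0.24 (adjusted p = 0.0032).

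The counts were lower with the 3 poor arrays in the fit. Over all 18 arrays limma called 0 S phase and 5 mitosis genes higher in spontaneous tumors, where 0.973% of all genes were higher, and 0 and 3 in treated tumors, where 2.98% were. At an unadjusted p under 0.05 this fit had 4 S phase and 18 mitosis genes in spontaneous, and 9 and 15 in treated tumors. Genes called with each of the 15 arrays left out in turn were 4 S phase and 19 mitosis genes in spontaneous tumors, and 6 and 6 in treated tumors. How many of all genes passed this rule is not given here. Cell division genes that passed it in both groups were Cdk2, Cdk4, Mcm7, Tk1, Bub1, Bub1b, Mad2l1, Aurkb, Kif23 and Prc1. With the Gapdh difference as a covariate, which overlaps between controls and tumors only through treated tumor 1, limma called 0 of the 51 genes in either tumor group, where 6 in spontaneous and 8 in treated tumors had an unadjusted p under 0.05. In that fit 2.58% of all genes were called higher in spontaneous and 4.24% in treated tumors. The median log2 fold changes were 0.63 and 0.69 for S phase and 1.30 and 0.85 for mitosis genes. For this fit and that over 18 arrays, the count over all genes at an unadjusted p under 0.05 is not given here.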

How the data were processed

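Per the submitters' processing notes, the authors processed the arrays with RMA (version and settings not given in the sources used here), and the deposited values are log2 levels per probe set, 45101 in all. RMA fits arrays together; whether the 3 poor arrays took part is not stated. The study's design text names ORIOGEN with permutation p-values; limma 3.58.1 in R 4.3.3 was used here instead.

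Of the probe sets, 34945 had 1 gene symbol in the platform annotation, 932 had several and 9160 had none, and 64 were array controls. Per gene, the probe set with the highest mean over the 15 arrays was taken, with no filter on low levels, which gave 18193 genes. A linear model with the 3 groups was fitted over all genes with lmFit and eBayes, and p-values were adjusted by Benjamini-Hochberg over all genes. The number of arrays limits the precision. The fit was tested on simulated data.

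Members, lists, the arrays left out and the rule for named genes (any member; from each other list, at most 6 called genes per direction by smallest p) were chosen with earlier results of these data known. Alternatives were all 18 arrays, array weights, quantile normalization, median centring, a filter on low levels, the mean over probe sets, 2 groups at a time, a 2-fold minimum, a mean-variance trend with robust variances, actin and Gapdh covariates, a replicate block and each array left out in turn; the Gapdh covariate and the choice of probe set over 18 arrays were added after the data were seen.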

Additional observations from a re-analysis of the deposited data

Results flagged for a closer look

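Within groups, 3 of 159 sets of values held a lone array, one whose gap to the nearest array was large for the range of its group; chance alone gives this in about 1 in 20 groups. Kif23, the central spindle motor, read 7.45 on treated tumor 4, where the other treated tumors read 8.95 to 9.81. Nek2, the centrosome kinase, read 6.25 on the same array, where the others read 7.31 to 7.68. Tk1, thymidine kinase, read 7.64 on spontaneous tumor 4, where the others read 7.30 to 7.35. None of the 51 cell division genes differed between the tumor groups by limma after adjustment. An unadjusted p under 0.05 was found for 3 of them, and for 1571 of all 18193 genes.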

How the results depend on the processing

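Over all 18 arrays the S phase genes called higher fell from 8 to 0 in both tumor groups, the mitosis genes from 30 to 5 in spontaneous and from 14 to 3 in treated tumors, and the medians in spontaneous tumors from 0.88 to 0.57 (S phase) and from 1.50 to 0.94 (mitosis); in treated tumors they went from 0.93 to 0.97 and from 0.99 to 0.82. With the Gapdh difference as a covariate all 4 counts were 0, and the S phase medians were 0.63 and 0.69; with the actin difference, S phase in spontaneous tumors gave 4 calls and a median of 0.60. With low genes left out, 10 S phase and 11 mitosis genes stayed in the test; of these 7 and 10 were called in spontaneous, and 6 and 5 in treated tumors. Array weights over 18 arrays called 33 mitosis genes in treated tumors, and averaging the probe sets of a gene called 1 lower there. With each array left out in turn, S phase calls ranged from 4 to 11 in spontaneous and 6 to 11 in treated tumors, and mitosis calls from 19 to 32 and 7 to 30. The medians ranged from 0.66 to 1.02 and 0.84 to 1.06 for S phase, and from 1.28 to 1.72 and 0.79 to 1.23 for mitosis genes. For low genes left out, array weights and single arrays left out, the counts over all genes are not given here. Between tumor groups the counts were 0 throughout, and without one array the mitosis median ranged from -0.67 to -0.29. The labels do not say what a replicate number marks. Same-numbered arrays of different groups had correlations from -0.15 to 0.30, which were not set against those of differently numbered arrays. With the replicate block 8 and 6 S phase and 32 and 17 mitosis genes were called. Other than as stated, the cause of these shifts was not tested.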
